A study of Mus musculus with 4 samples.

Results

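Among the 46095 gene symbols counted in mouse stomach RNA, 8 genes of B cells, plasma cells and IgA transport were followed. They were *Cd79a*, *Cd79b*, *Ms4a1*, *Pou2af1*, *Tnfrsf17*, *Mzb1* and *Jchain*, which mark cells of the B lineage, and *Pigr*, the epithelial receptor that carries IgA to the lumen. They were taken by name, with earlier results of these data known. Stomachs came from C57BL/6 mice at 12 weeks of age, with 2 samples labelled WT and 2 labelled MYC-KI. The genotype of MYC-KI is given as Atp4b-cre;MycOE, which the study also writes as Atp4b-cre; Myc fl/+, so that Cre driven by the *Atp4b* promoter of parietal cells switches on *c-Myc* in that lineage (here *c-Myc* transgenic mice). The study used Myc fl/fl littermates as controls and calls them WT, so both genotypes carried the floxed transgene. The series text speaks of triplicates, and 2 samples per genotype were analysed here. Nothing in the labels says that the samples of a genotype came from separate mice, so p-values measure the spread between these samples.

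The samples held 30260305 to 41463647 counts. As the table stands, the names and the counts of the MYC-KI columns are out of step, so the MYC-KI counts were set, row by row, beside the names sorted by character code. Over the 61 rows around each of the 8 genes, Pearson's r between the genotypes (mean log2 of the count plus 1, across genes, which are not independent replicates) then lay between 0.963 and 0.982. The female-specific RNA *Xist* had 17846 counts in WT replicate 2 and 85 to 201 in the other samples, so 1 WT sample was female and the other 3 were male by this gene. The mouse *Myc* gene was counted 1062 and 759 times in WT against 735 and 1091 in MYC-KI, a log2 fold change of -0.35 (adjusted p = 0.163), and does not count the human transgene by name.

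B cells carry an antigen receptor whose signal is passed on by the CD79A and CD79B chains. Once activated they may become plasma cells, which stop making most B cell surface proteins and secrete antibody. In mucosa the main product is IgA, joined into dimers by the J chain, and the polymeric immunoglobulin receptor on epithelial cells binds these dimers at the base of the cell and releases them at the surface. A healthy stomach holds few B cells and scattered plasma cells in the lamina propria.

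The promoters of 3 genes are shown, of which *Pigr* and *Blnk* hold a motif that was searched for and *Jchain* does not. They are *Pigr*, the 1 gene of the 8 that rose, and *Jchain*, the most abundant of the 7 B lineage genes among the 8. The third is *Blnk*, a B cell signaling adaptor outside the 8 that rose. *Spib* and *Rgs13*, also outside the 8, rose too and are not shown. Each window runs from 250 bases before to 50 bases after the start of the RefSeq gene in GRCm38.p6, 5′ to 3′ on the gene's strand, and capitals mark a match. *Pigr* lies on the plus strand (chr1:130826434-130826733), *Jchain* on the minus strand (chr5:88527848-88528147) and *Blnk* on the minus strand (chr19:40994172-40994471).
Pigr: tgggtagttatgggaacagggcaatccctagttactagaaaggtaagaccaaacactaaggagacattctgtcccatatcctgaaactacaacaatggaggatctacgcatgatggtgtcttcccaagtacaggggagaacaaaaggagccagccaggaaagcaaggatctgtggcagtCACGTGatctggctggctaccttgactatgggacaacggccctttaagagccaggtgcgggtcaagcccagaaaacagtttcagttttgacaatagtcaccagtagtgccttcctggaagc
Jchain: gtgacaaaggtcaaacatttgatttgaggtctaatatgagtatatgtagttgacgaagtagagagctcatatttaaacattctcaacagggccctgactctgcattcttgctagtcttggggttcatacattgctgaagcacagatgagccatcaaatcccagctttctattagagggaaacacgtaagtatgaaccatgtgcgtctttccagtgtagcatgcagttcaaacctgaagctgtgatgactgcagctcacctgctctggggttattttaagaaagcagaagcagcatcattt
Blnk: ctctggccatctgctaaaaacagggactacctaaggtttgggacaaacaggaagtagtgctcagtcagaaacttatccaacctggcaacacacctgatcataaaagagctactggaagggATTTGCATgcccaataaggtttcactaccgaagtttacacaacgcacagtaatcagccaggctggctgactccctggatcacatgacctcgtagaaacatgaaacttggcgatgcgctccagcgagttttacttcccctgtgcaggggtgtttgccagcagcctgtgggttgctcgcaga

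The first motif was the E-box CACGTG, the letters that MYC with its partner MAX binds, and the second was the octamer ATGCAAAT, read also as ATTTGCAT on the other strand, to which the POU2F proteins and their B cell coactivator POU2AF1 bind. RefSeq windows were found for *Cd79a*, *Jchain*, *Tnfrsf17*, *Pou2af1* and *Pigr*. The E-box was in 1 of these 5, *Pigr*, where it begins 71 bases before the start, and in 7.15% of all 32851 windows. The octamer was in 0 of the 5 and in 1.74% of all windows, and in *Blnk* it begins 130 bases before the start. A match is a description of letters, and binding was not measured.

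Of the 8 genes, *Pigr* was the 1 gene that passed the test, and it was 3.31-fold higher in the *c-Myc* transgenic samples. The B cell genes *Cd79b* and *Ms4a1* were lower in both transgenic samples than in both WT samples without passing the test. The plasma cell genes *Jchain* and *Mzb1* and the coactivator *Pou2af1* were highest in one transgenic sample and lowest in the other, except that with library size alone *Jchain* was lowest in a WT sample. Genes were called at an adjusted p-value under 0.05 from edgeR's quasi-likelihood test and an absolute log2 fold change above 0.585. By this rule 10.7% of the 17643 tested genes were called, 5.65% higher and 5.08% lower. *Tnfrsf17* had too few counts to be tested, which left 7 of the 8.

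**Figure D1:**
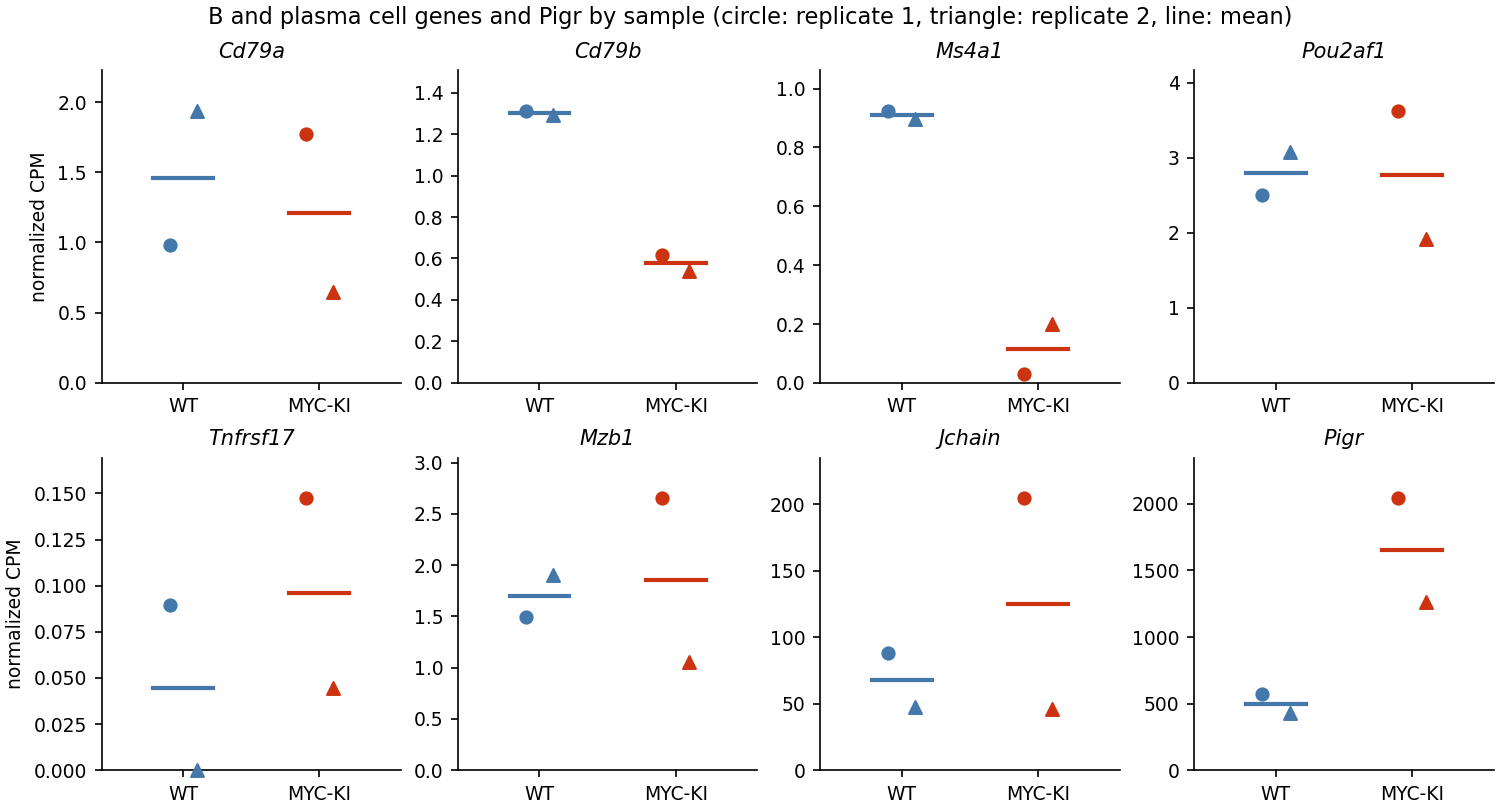
Normalized CPM of the 8 genes (vertical axis, linear from 0) in the 2 WT and 2 MYC-KI samples, with circles for replicate 1, triangles for replicate 2 and a line at the mean of each genotype. The genotypes are apart for *Pigr*, *Cd79b* and *Ms4a1*, while *Jchain* spans 45.7 to 205 within MYC-KI alone.

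*Cd79b* (chr11:106311341-106314562) encodes one of the 2 signaling chains of the B cell receptor. It had 1.31 and 1.29 normalized CPM (counts relative to library size after TMM scaling) in WT against 0.619 and 0.537 in MYC-KI, from 44, 36, 21 and 24 counts. Both transgenic samples were below both WT samples, as were those of 31.5% of all tested genes. The log2 fold change was -1.17 (standard error 0.39) and did not pass the test (adjusted p = 0.117).

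*Cd79a* (chr7:24897497-24901858), is the partner chain of the same receptor. It had 0.983 and 1.94 normalized CPM in WT against 1.77 and 0.649 in MYC-KI, and the genotypes overlapped. The log2 fold change was -0.28 (standard error 0.67, adjusted p = 0.809), and it turned to 0.29 without WT replicate 2 and to 0.28 without MYC-KI replicate 2.

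*Ms4a1* (chr19:11249679-11266149) encodes CD20, a surface protein of B cells that plasma cells lose. It had 31 and 25 counts in WT against 1 and 9 in MYC-KI, which is 0.924 and 0.896 against 0.0295 and 0.202 normalized CPM. *Ms4a1* reached the filter on low counts through the WT samples alone. The log2 fold change was -2.87 (standard error 0.84, adjusted p = 0.0931), and it was -4.77 without MYC-KI replicate 2 and -2.16 without MYC-KI replicate 1. DESeq2 gave an adjusted p of 0.0509, also above the threshold. In a bulk sample, fewer B cells and less of this RNA per cell cannot be told apart.

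Counted against *Cd79a* within the same library, where scaling plays no part, the share of *Ms4a1* was lowest in one transgenic sample. *Ms4a1* made up 48.4% of the summed counts of both genes in WT replicate 1 (exact binomial 95% interval 35.8 to 61.3%) and 31.6% in WT replicate 2 (21.6 to 43.1%). In MYC-KI replicate 1 it made up 1.64% (0.0415 to 8.80%), below both WT intervals. In MYC-KI replicate 2 it made up 23.7% (11.4 to 40.2%), which overlapped the interval of each WT sample. Such intervals cover counting error only.

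*Pou2af1* (chr9:51213690-51240079) encodes the coactivator of octamer-binding proteins in B cells and plasma cells. It had 2.50 and 3.08 normalized CPM in WT against 3.63 and 1.93 in MYC-KI, with overlapping genotypes. The log2 fold change was -0.01 (standard error 0.42, adjusted p = 0.988), with no stable sign when samples were left out (-0.53 to 0.38).

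*Tnfrsf17* (chr16:11313232-11320074) encodes BCMA, the receptor by which plasma cells receive survival signals. It had 3 and 0 counts in WT against 5 and 2 in MYC-KI. With counts this low the gene did not reach the filter, and no difference was read from them.

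*Mzb1* (chr18:35647265-35650266) encodes a chaperone that helps assemble IgM and IgA in the endoplasmic reticulum. It had 1.49 and 1.90 normalized CPM in WT against 2.65 and 1.05 in MYC-KI. The transgenic samples lay on either side of both WT samples, and the log2 fold change was 0.12 (standard error 0.56, adjusted p = 0.899). Without MYC-KI replicate 1 it was -0.68.

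*Jchain* (chr5:88519809-88527897) had 2950 and 1316 counts in WT against 6938 and 2042 in MYC-KI, the most of the 7 B lineage genes among the 8. In normalized CPM these are 87.9 and 47.2 against 205 and 45.7. One transgenic sample was above both WT samples, and the other was close to the lower WT sample. With library size alone the levels were 81.6 and 43.5 CPM in WT against 221 and 49.2 in MYC-KI, so that WT replicate 2 was then lowest. The log2 fold change was 0.89 (standard error 0.77, adjusted p = 0.475), and without MYC-KI replicate 1 it was -0.56. Against the counts of *Mzb1* in the same library, *Jchain* stood at 5900 and 2483 counts per 100 in WT and at 7709 and 4345 in *c-Myc* transgenic mice, with overlapping genotypes.

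Per kilobase of merged exons in GENCODE M21, the level of *Pigr* was above that of *Jchain* in every sample, and *Jchain* was above the other 6 genes in every sample. *Pigr* had 106 to 507 and *Jchain* 18.2 to 81.3 normalized CPM per kilobase. *Pou2af1* (0.755 to 1.42), *Mzb1* (0.866 to 2.18), *Cd79a* (0.446 to 1.33) and *Cd79b* (0.376 to 0.916) had overlapping ranges. *Mzb1* was the highest of these in every sample and *Pou2af1* was above *Cd79b* in every sample, while *Cd79a* changed place. *Ms4a1* (0.00477 to 0.149) and *Tnfrsf17* (0 to 0.181) were lowest.

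The antibody genes themselves were counted in part. Of 13 rows for constant regions, 10 were at 0 in every sample, among them *Igkc* and *Ighm*, in libraries with at least 1316 counts of *Jchain*. Heavy variable segments (183 rows) summed to 0 to 3 counts per sample, and lambda variable segments (3 rows) had none. How the counting treated these rows, which lie inside the larger locus rows *Igh*, *Igk* and *Igl*, is not given in the sources used here, so a row at 0 was not read as absence. Shares of antibody classes were not computed for that reason. *Igha*, the constant region of IgA, was the 1 constant region with at least 10 counts in a sample, with 15 and 1 counts in WT against 35 and 10 in MYC-KI (log2 fold change 1.31, standard error 1.26, adjusted p = 0.517).

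Kappa variable segments carried nearly all counts of the constant and variable rows, and the locus rows held a further 235 and 153 counts in WT against 528 and 211 in MYC-KI. The kappa segments summed to 2024 and 1008 counts in WT and to 3535 and 1002 in *c-Myc* transgenic mice, which is 60.3 and 36.1 against 104 and 22.4 normalized CPM. The order of the samples at the extremes was that of *Jchain* under TMM scaling, with MYC-KI replicate 1 highest and MYC-KI replicate 2 lowest. Over all constant and variable rows together the sums were 48.6 ± 17.5 (SD, n = 2) for WT against 64.0 ± 58.5 (SD, n = 2) for MYC-KI, a log2 ratio of 0.40. The exact permutation test gave p = 1 (two-sided), and the smallest p that 2 against 2 samples allow is 0.333. Without MYC-KI replicate 1 the log2 ratio was -1.10. Of the locus rows, *Igh* had the same samples at the extremes, with 4.23 and 3.76 normalized CPM in WT against 9.995 and 2.78 in MYC-KI. *Igk* had 2.62 and 1.58 against 4.95 and 1.79, lowest in WT replicate 2, and *Igl* had 5 and 4 counts against 21 and 7, higher in both transgenic samples.

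The kappa counts were spread over many segments in each sample. Of 162 rows, 44 had at least 10 counts in a sample, and MYC-KI replicate 1 had the most counts in 23 of them, WT replicate 1 in 13, and WT replicate 2 and MYC-KI replicate 2 in 4 each. The 13 include a segment with 52 counts in both WT replicate 1 and MYC-KI replicate 1, a tie. The leading segment was a different one in each sample. *Igkv4-59* took 6.37% of the kappa counts in WT replicate 1 (exact binomial 95% interval 5.35 to 7.53%) and *Igkv12-89* took 9.72% in WT replicate 2 (7.96 to 11.7%). In *c-Myc* transgenic mice *Igkv5-48* took 12.2% in replicate 1 (11.1 to 13.3%) and *Igkv6-15* took 14.3% in replicate 2 (12.2 to 16.6%). The effective number of segments, the inverse of the summed squared shares, was 27.6 and 23.3 in WT against 18.9 and 13.6 in MYC-KI. Both transgenic samples were thus below both WT samples, in libraries with 1002 to 3535 kappa counts. This was not tested. Segments of one family are similar in sequence, and how reads were assigned among them is not given, so counts of a single segment are uncertain.

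**Figure D2:**
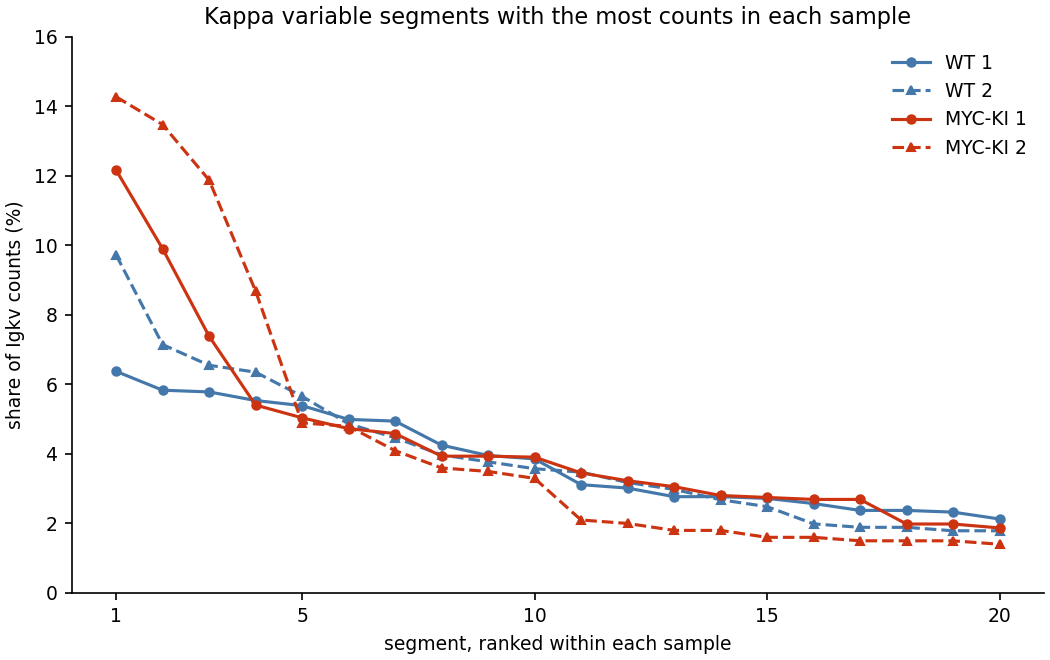
Share of all kappa variable counts (vertical axis, percent) taken by each of the 20 leading segments, ranked within each sample (horizontal axis), for 2 WT (blue) and 2 MYC-KI (red) samples. The first segment takes 12.2% and 14.3% in the MYC-KI samples and 6.37% and 9.72% in WT.

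Of 8 markers of intestinal epithelium, MYC-KI replicate 1 was highest in 6 and MYC-KI replicate 2 lowest in 7, with both true of 5. *Cdh17*, an intestinal cadherin, had 137 and 38.1 normalized CPM in WT against 169 and 9.29 in MYC-KI. *Cdx1*, an intestinal transcription factor, had 6.94 and 2.94 against 9.41 and 0.672. *Lgals4*, a galectin and the most abundant of these markers, had 530 and 455 against 699.5 and 632, higher in both transgenic samples and lowest in WT replicate 2. For *Cdh17* and *Cdx1* MYC-KI replicate 1 was highest and MYC-KI replicate 2 lowest, as for *Jchain* and the kappa segments. None of the 8 markers of the list was called or at 0 in all samples, 1 (*Lgals4*) had an unadjusted p under 0.05 in edgeR, and DESeq2 called 0. Their summed level was 837 to 1168 normalized CPM in WT and 866 to 1368 in *c-Myc* transgenic mice. Markers of the squamous forestomach stood in another order, with a summed level of 2680 and 1530 in WT against 912 and 4514 in MYC-KI, lowest in MYC-KI replicate 1, where *Jchain* was highest, and highest in MYC-KI replicate 2. The part of either tissue's markers in the level of *Jchain* was not tested.

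**Figure D3:**
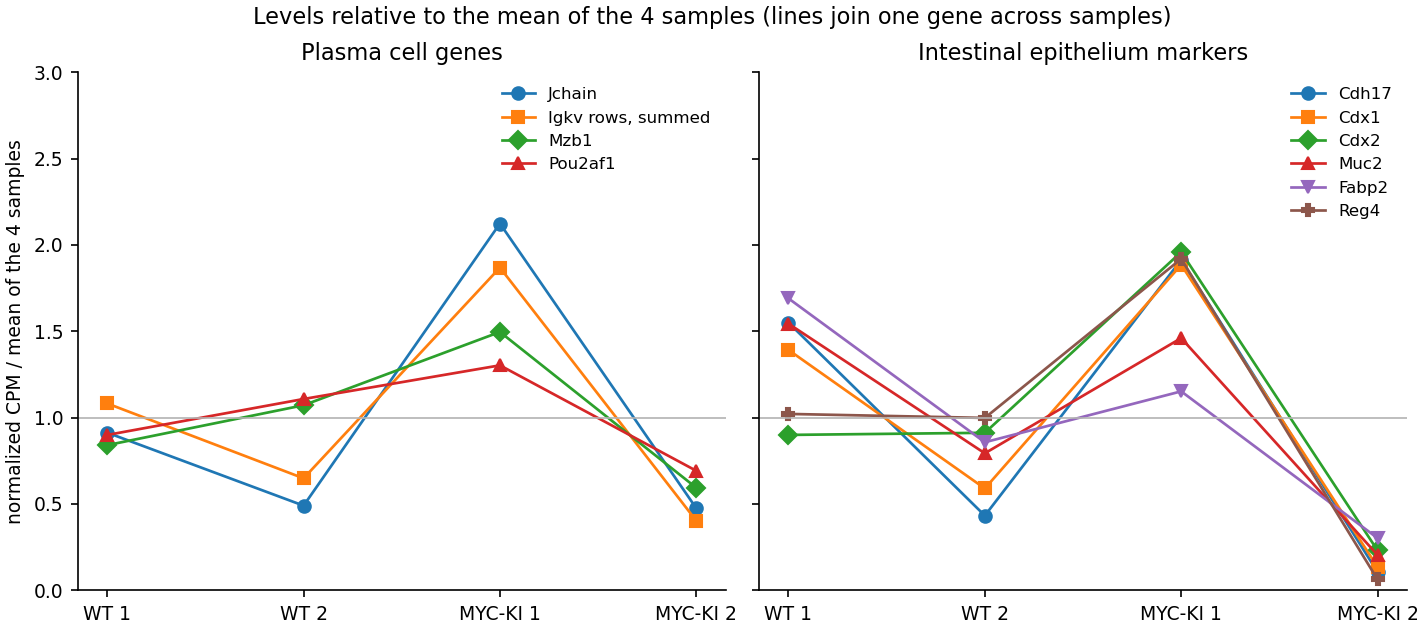
Normalized CPM divided by the mean of the 4 samples (vertical axis) for *Jchain*, the summed kappa segments, *Mzb1* and *Pou2af1* (left) and for *Cdh17*, *Cdx1*, *Cdx2*, *Muc2*, *Fabp2* and *Reg4* (right) in each sample, with lines joining the values of one gene. MYC-KI replicate 2 has the lowest value of each plotted item, and MYC-KI replicate 1 the highest of all but *Muc2* and *Fabp2*. The plotted items are a part of their lists. Of the intestinal markers, *Vil1* and *Lgals4* are not plotted, and *Lgals4* was lowest in WT replicate 2. Most other plasma cell genes are not plotted either, among them *Sdc1*, which was highest in MYC-KI replicate 2.

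*Pigr* (chr1:130826684-130852249) had 19195 and 11938 counts in WT against 69253 and 56437 in MYC-KI. In normalized CPM these are 572 and 428 against 2042 and 1263, with both transgenic samples above both WT samples, as for 33.3% of all tested genes. The log2 fold change was 1.73 (standard error 0.30, adjusted p = 0.0377 in edgeR), and DESeq2 gave 1.72 (adjusted p = 1.89e-08). Without WT replicate 1 it was 1.95 (adjusted p = 0.205) and without WT replicate 2 it was 1.53 (adjusted p = 0.253), with the lone WT sample taken to vary like the others. In these fits edgeR called 0 genes in the whole table, with 3554 and 3410 genes at an unadjusted p under 0.05.

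*Pigr* was also counted against general epithelial genes of the same library, which were named after their values were seen. *Cdh1*, the epithelial cadherin, had 1095 and 1200 normalized CPM in WT against 1241 and 1220 in MYC-KI (log2 fold change 0.10, adjusted p = 0.535). Per 100 counts of *Cdh1* there were 52.25 and 35.7 counts of *Pigr* in WT against 165 and 104 in MYC-KI. *Epcam*, an epithelial surface protein, had a log2 fold change of 0.84 that did not pass in edgeR (adjusted p = 0.0705) and passed in DESeq2, and in edgeR with library size alone, without a filter or without MYC-KI replicate 2. Per 100 counts of *Epcam* there were 157 and 124 counts of *Pigr* in WT against 269 and 246 in MYC-KI. *Krt8*, a keratin of simple epithelium, had a log2 fold change of 0.05 (adjusted p = 0.831), and per 100 of its counts there were 16.8 and 11.8 counts of *Pigr* in WT against 59.4 and 33.1 in MYC-KI. The genotypes did not overlap in any of these ratios, and the gap was smallest against *Epcam*. With *Cdh1* and *Krt8* near level, their ratios largely restate the counts of *Pigr*.

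The cargo adaptor *Jchain* was also counted against the transporter *Pigr* in each library. There were 15.4 and 11.02 counts of *Jchain* per 100 counts of *Pigr* in WT against 10.02 and 3.62 in MYC-KI. This ratio was not tested, and its denominator is the gene that rose.

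Receptors and factors known to act upstream of *Pigr* were a list of 14 genes, of which 13 were tested. None was called by edgeR, 3 had an unadjusted p under 0.05, and DESeq2 called 1, *Il4ra*. *Il4ra*, the receptor chain for IL-4 and IL-13, had 43.5 and 50.3 normalized CPM in WT against 83.4 and 59.0 in MYC-KI (log2 fold change 0.60, adjusted p = 0.116 in edgeR), and it also passed in edgeR without MYC-KI replicate 2. *Il17rc*, a chain of the IL-17 receptor, had a log2 fold change of 0.32 (adjusted p = 0.310), and *Ifngr1*, a chain of the interferon gamma receptor, one of -0.47 (adjusted p = 0.0473), under the fold threshold. The median log2 fold change of the list was 0.00, against 0.012 over all tested genes.

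Other B cell genes were a list of 25, of which 14 were tested, 2 rose and 1 fell. *Blnk*, the adaptor that links the B cell receptor to its enzymes, had 11.6 and 12.2 normalized CPM in WT against 28.0 and 26.9 in MYC-KI (log2 fold change 1.21, standard error 0.12, adjusted p = 0.0198). The receptor chains *Cd79a* and *Cd79b* had 0.537 to 1.94 normalized CPM in the same samples and were not called. Which cells held the *Blnk* RNA was not tested. *Spib*, a transcription factor of B cells, plasmacytoid dendritic cells, M cells and tuft cells, rose from 5.10 and 5.23 to 29.0 and 17.7 (log2 fold change 2.18, standard error 0.29, adjusted p = 0.0272). *Bank1*, a B cell scaffold protein, fell from 1.28 and 2.19 to 0.354 and 0.246 (log2 fold change -2.52, standard error 0.51, adjusted p = 0.0497), and its call held in 4 of 10 alternatives. *Bank1* had 43 and 61 counts in WT against 12 and 11 in MYC-KI, and without the WT samples it would not have reached the filter on low counts.

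The remaining 11 tested genes of that list did not pass, and 10 of them had a log2 fold change below 0. Among the 10 was *Fcrla*, with 15 and 23 counts in WT against 10 and 3 in MYC-KI. Like *Bank1*, *Fcrla* would not have reached the filter on low counts without the WT samples. *Ebf1*, a B lineage factor that stromal cells also use, had 10.8 and 13.3 normalized CPM in WT against 4.63 and 7.34 in MYC-KI (log2 fold change -1.01, adjusted p = 0.0952), and DESeq2, and edgeR without MYC-KI replicate 2, called it lower. The median over the 14 tested genes was -0.98. *Cr2*, a complement receptor of B cells and follicles, had 8 and 3 counts in WT against 1 and 1 in MYC-KI and was not tested.

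**Figure D4:**
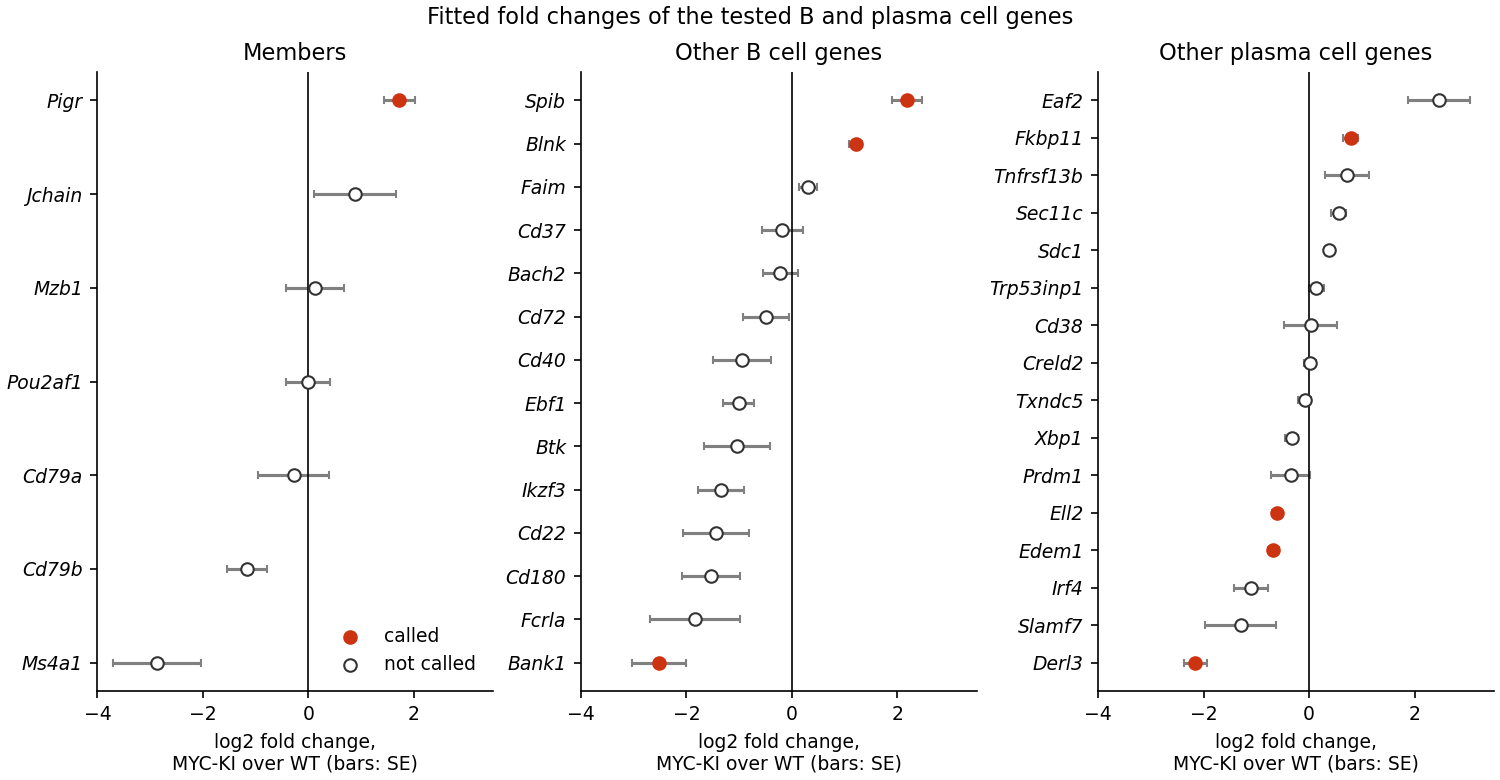
Fitted log2 fold changes of MYC-KI over WT (horizontal axis, bars: standard error) for the tested genes of the 8 and of the lists of other B cell and other plasma cell genes. Filled red points were called, and *Pigr* is the 1 filled point among the 7 tested genes of the first panel.

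Other plasma cell genes were a list of 17, of which 16 were tested, with 1 higher and 3 lower. Several of these genes serve protein secretion in many cell types. *Fkbp11*, a folding enzyme of the endoplasmic reticulum, rose from 12.1 and 11.4 to 21.1 and 19.5 normalized CPM (log2 fold change 0.79, standard error 0.14, adjusted p = 0.0381). Its call held in 6 of 10 alternatives. *Derl3*, a component of the pathway that removes misfolded proteins, fell from 9.09 and 8.82 to 1.98 and 2.04 (log2 fold change -2.16, standard error 0.22, adjusted p = 0.0200).

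*Edem1*, of the same disposal pathway, had a log2 fold change of -0.68 (adjusted p = 0.0334), and *Ell2*, an elongation factor that plasma cells use to process antibody RNA, had -0.61 (adjusted p = 0.0323). Each call held in 5 of 10 alternatives, and with library size alone the values were -0.46 for *Edem1* and -0.39 for *Ell2*, under the fold threshold. *Xbp1* (-0.33, adjusted p = 0.149), *Sdc1* (0.38, adjusted p = 0.0532) and *Txndc5* (-0.09, adjusted p = 0.674) did not pass. With library size alone *Sdc1* passed in edgeR, with a log2 fold change of 0.601 (adjusted p = 0.018). Of the 16 tested genes 8 had a log2 fold change above 0, and the median was -0.03. Beside these genes, *Pgc*, the pepsinogen of chief cells, which secrete zymogen, went from 81000 and 76700 to 1043 and 1426 normalized CPM (log2 fold change -6.00, adjusted p = 0.00975), and its part in them was not tested.

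Genes of the germinal centre and class switch were a list of 11, of which 7 were tested, 1 was called higher and 0 lower. *Rgs13*, a regulator of G protein signaling in germinal centre B cells, mast cells and tuft cells, rose from 3.49 and 5.09 to 39.4 and 29.4 normalized CPM (log2 fold change 3.01, standard error 0.28, adjusted p = 0.0188). *Bcl6*, the germinal centre factor that other cells also express, had a log2 fold change of 0.48 (adjusted p = 0.217), and *Ung*, a DNA repair enzyme, one of 0.93 (adjusted p = 0.0551). DESeq2 called *Ung* higher (adjusted p = 0.00266) and *Fcgr2b*, an inhibitory antibody receptor, lower, and *Ung* was also called in edgeR with library size alone, without a filter and without MYC-KI replicate 2 (adjusted p = 0.0238 to 0.285 over its edgeR alternatives).

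*Rgs13* and *Spib* rose beside markers of other cells that express them. Of 9 mast cell markers 6 were called higher and 0 lower, and their summed level was 79.1 to 104 normalized CPM in WT and 265 to 268 in *c-Myc* transgenic mice. Among the 6 was *Fcer1a*, with 10 and 16 counts in WT against 69 and 123 in MYC-KI. Without the MYC-KI samples *Fcer1a* would not have reached the filter on low counts. *Mcpt2*, a mast cell protease, rose from 5.42 and 11.9 to 67.3 and 64.5 (log2 fold change 2.93, adjusted p = 0.0287). A list of 10 tuft cell markers was added after *Rgs13* and *Spib* had been seen. Of these 9 were tested, 5 were called higher and 0 lower, and their summed level was 306 to 337 in WT and 428 to 474 in *c-Myc* transgenic mice. *Trpm5*, the cation channel of tuft cells, rose from 10.3 and 11.7 to 68.7 and 42.5 (log2 fold change 2.34, adjusted p = 0.0228). No defining marker of either list was at 0 in all samples, and the part of these cells in the level of *Rgs13* or *Spib* was not tested.

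Signals that recruit and keep B cells and IgA plasma cells were a list of 19 genes, of which 13 were tested, 3 were called lower and 0 higher. *Cxcl12*, the chemokine that holds plasma cells in their niche, fell from 173 and 145 to 29.0 and 30.3 normalized CPM (log2 fold change -2.42, standard error 0.12, adjusted p = 0.00975). *Itga4*, the integrin chain by which lymphocytes enter mucosa, fell from 13.0 and 14.7 to 5.93 and 4.97 (log2 fold change -1.35, standard error 0.19, adjusted p = 0.0302). *Aldh1a2*, an enzyme of retinoic acid synthesis, fell from 35.2 and 27.7 to 17.1 and 17.6 (log2 fold change -0.86, adjusted p = 0.0429), and its call held in 4 of 10 alternatives.

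A further 3 genes of that list were named after their values were seen, since DESeq2 called them and edgeR as run here did not. *Cxcl13*, the chemokine that draws B cells into follicles, had 2.03 and 3.15 normalized CPM in WT against 0.177 and 0.470 in MYC-KI (log2 fold change -2.96, adjusted p = 0.0521 in edgeR). It passed in edgeR with library size alone, without a filter or without MYC-KI replicate 2 (adjusted p = 0.018 to 0.0454). From 68 and 88 counts in WT against 6 and 21 in MYC-KI, *Cxcl13* would not have reached the filter on low counts without the WT samples. *Tnfsf13*, the plasma cell survival factor APRIL, had 1.10 and 1.90 against 4.36 and 3.43 (log2 fold change 1.38, adjusted p = 0.0936). *Ccl28*, the epithelial chemokine for IgA plasma cells, had 8.97 and 7.03 against 16.1 and 11.8 (log2 fold change 0.80, adjusted p = 0.102). The receptor *Ltbr* had a log2 fold change of 0.16 (adjusted p = 0.392). *Ccl19*, *Ccl21a*, *Lta* and *Ltb* were listed at 0 in all samples.

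Other leukocytes gave the following counts. T cell markers had 8 tested genes and 0 calls in edgeR, 0 at an unadjusted p under 0.05 and 0 in DESeq2, and their sum was 7.84 to 8.39 normalized CPM in WT and 5.24 to 9.52 in *c-Myc* transgenic mice. Of 10 macrophage and monocyte markers 7 were called lower and 1 higher, and the sum was 391 to 404 in WT and 161 to 166 in *c-Myc* transgenic mice. *Lyz2*, the macrophage lysozyme, fell from 140 and 139 to 45.0 and 47.1 (log2 fold change -1.60, adjusted p = 0.00975), and *Csf1r*, the macrophage growth factor receptor, fell by 1.56 on the log2 scale (adjusted p = 0.0152).

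**Figure D5:**
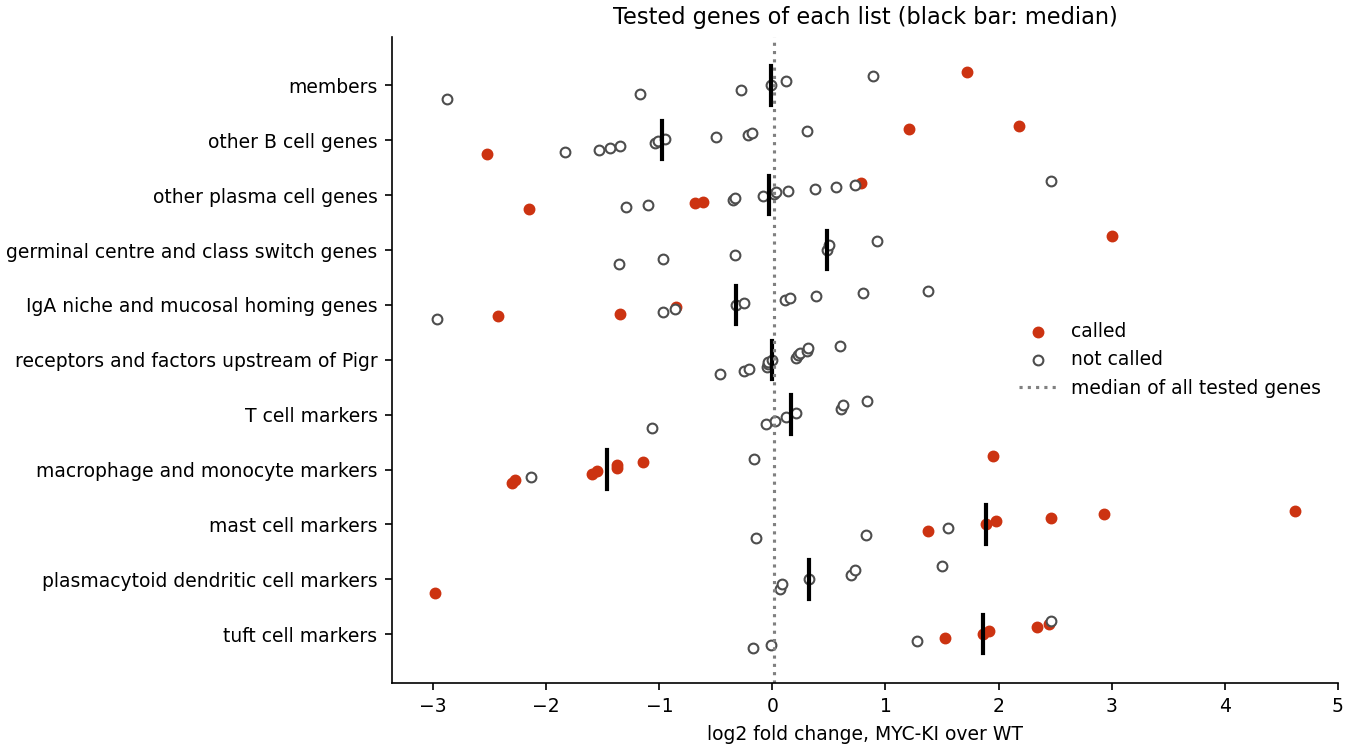
Log2 fold changes of MYC-KI over WT (horizontal axis) for the tested genes of each list, with filled red points for called genes, a black bar at the median of the list and a dotted line at the median of all tested genes (0.012). The medians are -0.98 for other B cell genes, -0.03 for other plasma cell genes, -1.47 for macrophage and monocyte markers and 1.89 for mast cell markers.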

How the data were processed

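RNA-seq of 4 stomach samples was read from 1 table of counts per gene symbol that the authors deposited without normalization. The submitters' processing notes name HISAT2 and mm10, and the tool and annotation used for counting are not given in the sources used here. All 4 columns were matched to samples by title. The MYC-KI counts were re-assigned to the names in character-code order, a step that uses no count value. The test was edgeR's quasi-likelihood test (edgeR 4.0.16, R 4.3.3, with TMM, filterByExpr on genotype, glmQLFit, glmQLFTest, no covariates, Benjamini-Hochberg over all tested genes), at the thresholds of the methods (0.05 and 0.585). The standard error is the absolute log2 fold change over the square root of F. DESeq2 1.42.0, the tool of the methods, was an alternative, with other scalings, filters, thresholds, a replicate block, the deposited order and each sample left out. The edgeR test alone was checked on simulated counts, with a common dispersion for all genes. It called 153 of 200 genes simulated at an absolute log2 fold change of 2, with 0 of the wrong sign, and 3 other genes. Replicates differed by more than counting noise (chi-square per degree of freedom 29.0 in WT and 97.9 in MYC-KI). Genes named were the 8 genes, in each list up to 6 called genes by adjusted p and up to 3 by level, each constant region with 10 counts in a sample, the leading variable segment of each sample, and the 5 nearest profiles of 3 genes. *Cr2*, *Fcrla*, *Fcgr2b*, *Cxcl13*, *Tnfsf13*, *Ccl28*, *Il4ra*, *Cdh1*, *Epcam*, *Krt8*, *Cdx1*, *Cdx2*, *Reg4*, *Muc2*, *Fabp2* and *Ivl* fall outside this rule and were named after their values were seen. Many genes that the rule picks from the marker lists are given only in the counts of their list, and some genes are not reported here. The 8 genes and all lists were chosen with earlier results of these data known. Gene positions are those of RefSeq in GRCm38.p6, the assembly of mm10. Exact tests used SciPy 1.17.1.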

Additional observations from a re-analysis of the deposited data

How the results depend on the processing

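Of the 8 genes, 1 was called under DESeq2, the other scalings, the other filters and the other fold thresholds, and it was *Pigr* each time. Without each sample in turn the number was 0 to 1. With the replicate block it was 0, and *Pigr* then had a log2 fold change of 1.70 (adjusted p = 0.0541). The labels give no reason to pair the numbers, and same-numbered samples deviated together with r = 0.052 over 15777 genes. The block called 114 genes in all, against 1892 without it. The number over all genes was 3232 under DESeq2, 3011 with library size alone, 1113 above a log2 fold change of 1, and 0 to 2470 without each sample in turn. With library size alone 52.6% of calls being higher became 75.5%, and the median log2 fold change from 0.012 to 0.235.

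In the deposited order 5 of the 8 genes and 18580 of all genes were called. The signs of *Cd79a* (2.36), *Ms4a1* (0.86), *Jchain* (-3.20) and *Pigr* (-2.73) were then opposite. Signs also turned for values near 0 or spread widely. *Pou2af1* was 0.21 with library size alone and 0.001 without a filter, and *Txndc5* was 0.14 with library size alone. *Mzb1* was -0.001 and *Cdh17* -0.84 with the replicate block. Over the fits without each sample, the log2 fold change ranged across 0 for *Cd79a* (-1.16 to 0.29), *Jchain* (-0.56 to 1.598), *Mzb1* (-0.68 to 0.65), *Pou2af1* (-0.53 to 0.38), *Txndc5* (-0.23 to 0.047), *Igha* (-0.14 to 3.99), *Krt8* (-0.032 to 0.12) and *Cdh17* (-3.23 to 1.22). The log2 ratio of the antibody sums was -1.10 to 1.12 without each sample, 0.62 with library size alone and 0.44 with the locus rows, an alternative added after the data were seen. The causes were not tested. Depth limits *Tnfrsf17*, *Ms4a1* and the other genes under about 1 normalized CPM.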

Other observations

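The genes whose levels over the 4 samples lay nearest to those of *Cd79a*, *Jchain* and *Pigr* were found by the Euclidean distance of log2 normalized CPM, each gene centred on its mean. The candidates were 13754 or 13755 genes at or above an average log2 CPM of 1. Nearest to *Pigr* were *Slc19a1* (distance 0.108), which takes up folate, *Gm11545* (0.161), *Dmbt1* (0.222), *Snhg4* (0.240) and *Gas5* (0.260). *Dmbt1*, a secreted mucosal defence protein that binds IgA, had 826 and 689 normalized CPM in WT against 2643 and 1802 in MYC-KI. Nearest to *Jchain* were *Gzma* (0.312), *Akr1b7* (0.408), *Hkdc1* (0.420), *Ppp1r14d* (0.429) and *Pnp2* (0.459). *Gzma*, a granzyme of cytotoxic lymphocytes, had 3.10 and 1.004 against 6.22 and 0.940. Among those nearest to *Cd79a* were *Gm4202* (0.211), *Pbld1* (0.223), *Kcne3* (0.279) and *Cd274* (0.284). These distances rest on 4 samples and were not tested.

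Plasmacytoid dendritic cells also express *Jchain*, *Mzb1* and *Spib*. Of the 7 tested markers of these cells 1 was called lower and 0 higher, 6 had a log2 fold change above 0, and the median was 0.32. *Siglech*, their defining surface lectin, fell from 1.07 and 1.04 normalized CPM in WT to 0.177 and 0.0896 in *c-Myc* transgenic mice (log2 fold change -2.98, adjusted p = 0.0425 in edgeR), and its call held in 4 of 9 alternatives. *Siglech* had 36 and 29 counts in WT against 6 and 4 in MYC-KI and reached the filter on low counts through WT alone. Red cell markers had 1 of 5 tested genes called lower in edgeR and 4 in DESeq2, all 6 genes were lower in both transgenic samples, the median log2 fold change was -2.41, and the summed level was 237 and 73.9 normalized CPM in WT against 26.6 and 29.8 in MYC-KI, in the same direction as *Cd79b* and *Ms4a1*. The part of blood in these genes was not tested. The other lists were gastric glandular epithelium markers with 6 of 14 called lower and 0 higher, pancreatic acinar markers with 2 of 4 called lower (*Cela1*, and *Cela2a* with 20 and 18 counts in WT against 0 and 0, which reached the filter through WT alone), and forestomach squamous markers with 0 of 10 called in either direction (all 10 above 0 with a median of 1.11, 1 at an unadjusted p under 0.05, and DESeq2 called 1, *Ivl*).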
